A study of Homo sapiens with 3 samples.

Results

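The cilium trafficking genes described here code for the intraflagellar transport (IFT) complexes, the BBSome and the ciliary transition zone. They are 47 named genes, matched by symbol to the deposited table of 58039 genes. All 47 were listed, all had the status OK in each library and all reached the filter of a mean FPKM of at least 1. FPKM is the number of sequenced fragments per kilobase of transcript, scaled to the size of the library, so levels can be compared between genes. By role they fall into 6 IFT-A subunits, 13 IFT-B subunits, 2 kinesin-2 motor subunits, 8 BBSome subunits, 4 proteins that recruit or assemble the BBSome, 13 transition zone proteins and the GTPase ARL3.

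The cells were T47D, a human line derived from a luminal breast carcinoma. There was 1 control RNA library, and 2 came from cells in which ERINA, a long noncoding RNA, was stably knocked down with shRNA1 or with shRNA2. A short hairpin RNA (shRNA) directs the cell to degrade a matching transcript. Per the labels, all cells were infected with lentivirus and selected with puromycin, and the control carries shCtrl in its description while its shRNA label reads None. No condition has a repeat library. The spread between the knockdown libraries therefore holds any difference between the hairpins, and both comparisons share the single control.

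Intraflagellar transport carries building material along the axoneme in large protein trains. IFT-B trains move towards the tip with kinesin-2, and IFT-A serves the return with dynein-2 and the entry of membrane proteins. The BBSome is a coat that takes membrane proteins out of the cilium, and the transition zone at the base acts as its gate. Primary cilia are assembled in resting cells and taken down when cells divide, and they are rarer in breast carcinoma cells than in normal mammary epithelium. Motile cilia of multiciliated cells use the same machinery.

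The targeted RNA, listed as LINC00992 (a RefSeq synonym of which is ERINA), was at 63.4 FPKM in the control, 5.21 in the shRNA1 library and 8.91 in the shRNA2 library. All 8 markers of luminal breast epithelium were expressed, at 16.5 FPKM or more. Of these, 3 (FOXA1, KRT19 and PGR) rose in limma among protein-coding genes, where 7.11% of the fitted genes rose. Markers of other cells summed to 1.35 FPKM or less in each library for 4 immune and 3 endothelial genes, to 5.32, 2.94 and 2.79 FPKM for 4 fibroblast genes and to 11.9, 10.8 and 13.0 FPKM for 4 basal genes. In the fibroblast list COL1A1 was at 5.16, 1.65 and 2.10 FPKM and fell among protein-coding genes (limma, Benjamini-Hochberg adjusted p of 0.00959), and DCN was at 0.0227, 1.25 and 0.662 FPKM. The 8 markers of multiciliated cells summed to 15.4 FPKM in the control, 38.8 in the shRNA1 library and 40.9 in the shRNA2 library, and the 6 of them that were tested were all higher in both knockdown libraries. The 10 proliferation genes were all lower in both, with sums of 957.7, 507.0 and 606.4 FPKM. Of tested protein-coding genes 41.2% were higher and 44.9% lower in both. The part of the marker shifts in the results below was not tested. In bulk RNA, fewer cells that express a gene and less RNA per cell cannot be told apart. Depth, estimated from genes taken to hold a single fragment, was close to 30700000 (control), 31700000 (shRNA1) and 32000000 (shRNA2) fragments.

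In the control the genes spanned 1.72 to 52.3 FPKM, with a median of 10.3 against 13.6 for the 11546 tested protein-coding genes. Subunits of 1 complex were listed at unequal levels. IFT-A ran from WDR19 at 2.59 FPKM to IFT43 at 52.3 FPKM, a 20.2-fold range, and IFT-B from IFT172 at 3.02 to IFT46 at 38.5, a 12.8-fold range. The BBSome ran from BBS5 at 2.33 to TTC8 at 34.9 FPKM. Within the transition zone the tectonics TCTN1 (43.8 FPKM) and TCTN3 (41.8 FPKM) stood at the top, and B9D2 (1.72 FPKM) and CC2D2A (1.80 FPKM) at the bottom. The deposited bounds of each FPKM limit how finely such levels can be ordered; no source used here names the program or the confidence level behind them, so what error they cover is unknown. In the control their half-width was between 0.337 of the FPKM for the motor subunit KIF3B and 2.37 of it for B9D2, and the bounds of each pair of neighbouring genes in the order overlap.

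**Figure D1:**
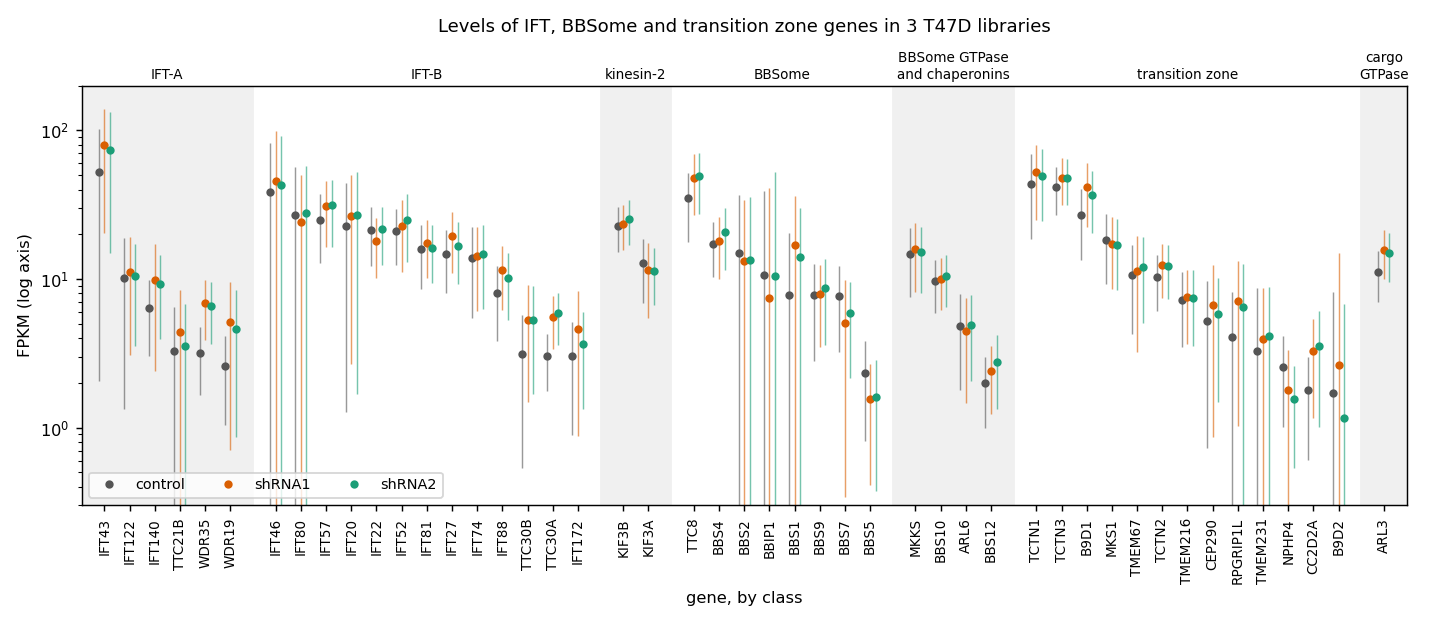
FPKM of each gene (log axis) in the control, shRNA1 and shRNA2 libraries, grouped by class; points are deposited values and vertical lines the deposited lower and upper bounds, cut off at 0.3 FPKM. The control bounds overlap those of the knockdown libraries for each of the 47 genes.

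By GENCODE release 29, 25 of the 47 genes overlap an exon of another gene, 7 of them one on the same strand. The median half-width was 0.705 of the control FPKM in these 25 and 0.488 in the other 22. Bounds started at 0 in all libraries for 7 genes (IFT46, IFT80, BBS1, BBS2, BBIP1, TMEM231 and B9D2, listed after their values were seen), and 6 of these overlap another gene, IFT46 being the exception. Whether reads were counted by strand is not given in the sources used here, so the division of reads in these 25 genes is uncertain. Of BBS1, 56.7% of the 50-base words occur in transcripts of other genes, 47.8% in the readthrough gene AP002748.4. That gene was listed at 0 FPKM in the control, 0.231 in the shRNA1 library and 0 in the shRNA2 library.

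Genes of cilia are classic targets of RFX transcription factors, which bind the X-box, a pair of inverted half-sites, and FOXJ1 is the forkhead factor of motile cilia. RefSeq promoters (GRCh38.p14, 250 bases before to 50 after a start site) were held for 40 of the 47 genes, all but WDR35, TTC30A, TTC30B, BBS9, TCTN2, TMEM67 and IFT22. The half-site GTTGCC, read on both strands, stood in 17 of the 40 (42.5%), against 17.0% of 8972 tested protein-coding genes and 14.6% of all 27305 genes in the promoter table. The half-site GTTACC stood in 8 (20.0%, against 8.28% and 7.88%). The pair GTNNCCNNGGNNAC stood in 6 (15%, against 3.13% and 2.51%), the pair GTTNCCNNNNNAAC in 4 (10%, against 2.03% and 1.67%) and the stricter GTTNCCNNGGNAAC in 1 (2.5%, against 0.747% and 0.593%). A pair can contain a half-site, and 1 match can fit several of the words. The forkhead core GTAAACA stood in 1 of the 40 (2.5%), IFT20, against 3.42% and 4.19%. A match is a run of letters and does not show that a factor binds there.

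The windows below show the 9 genes with a paired word, since these come closest to a whole X-box. Each is read 5′ to 3′ on the strand of its gene, with the matched word in capitals.
ARL6, chr3:97764726-97764755, plus strand: aagctcctGTTGCCAAGGGAACggtgcctg
WDR19, chr4:39182458-39182487, plus strand: ctcgcgcgGTCTCCTGGGTGACgggaacgc
IFT57, chr3:108222433-108222462, minus strand: ggagtctaGTTTCCCTGGTGACggattgtc
BBIP1, chr10:110919186-110919215, minus strand: ggcttcctGTTTCCAGGGTGACgtagattt
TMEM231, chr16:75556271-75556300, minus strand: agccgtcgGTTGCCGTGGAGACcgaggcga
B9D1, chr17:19378085-19378114, minus strand: ctgggactGTTACCTTGGCTACtggctccc
MKS1, chr17:58219268-58219297, minus strand: gcgtctccGTTGCCAGGAAAACagagcggc
B9D2, chr19:41364136-41364165, minus strand: agcctgctGTTGCCCCAGCAACaaccacgg
IFT172, chr2:27489694-27489723, minus strand: cgtggcggGTTGTCCAGGTAACcacgggag

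The BBSome subunits BBS1 and TTC8 and the transport subunit IFT88, which are described further on, hold a single half-site. They are shown as examples chosen after their values were seen, and both knockdown values were above the control in each. Further genes with a half-site and no pair were also higher with both shRNAs, while BBS5, which holds GTTGCC, and KIF3A, which holds GTTACC, were lower with both. Among the genes with a pair, BBIP1 and MKS1 were lower with both, and ARL6 and B9D2 lay on both sides of the control. WDR19, IFT57, TMEM231, B9D1 and IFT172 were higher with both. Genes with GTTGCC had a median log2 change of 0.09 (17 genes) and those without it 0.23 (23 genes). Any of the X-box words stood in 23 of the 40 genes (57.5%), against 24.8% of tested protein-coding genes. Of the 9 genes with a promoter that were called higher among protein-coding genes (limma, described further on), 4 hold an X-box word. The other 5 (IFT43, IFT140, CC2D2A, RPGRIP1L and ARL3) hold none, and IFT88 is not among those called.
BBS1, chr11:66510624-66510653, plus strand: agggcggggccgGTTGCCaggacgacgcct
TTC8, chr14:88824605-88824634, plus strand: cagccgtcgcggGTTGCCgggcagagtcgg
IFT88, chr13:20567161-20567190, plus strand: gattccgcgcttGGCAACggctcggcgtcg

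In IFT172 and IFT88 the word is matched on the other strand, so the capitals show its reverse complement. Counted from the start site, the first base of the paired word is at -24 in ARL6, -30 in IFT57, -27 in BBIP1, -34 in MKS1 and -8 in B9D2. It is at -40 or -6 in TMEM231, which has 2 starts in the table. The words of WDR19 (-63) and B9D1 (-193) lie further before the start, and that of IFT172 (28) after it.

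Knockdown was compared with control to see which transcripts differ when ERINA is reduced. Of the 47 cilium trafficking genes, 36 (76.6%) were higher and 7 (14.9%) lower in both knockdown libraries, and 4 lay on both sides of the control. Over all 13112 tested genes these shares were 42.4% and 42.6%, and over tested protein-coding genes 41.2% and 44.9%. After scaling each library to 1 common total, 27 were higher and 9 lower with both, against 31.6% of protein-coding genes higher and 52.2% lower. The median log2 change was 0.21, with 0.22 for shRNA1 and 0.18 for shRNA2, against 0 over all tested genes. Changes are differences in log2(FPKM + 0.5), a scale that understates the change of low genes. The values of 7 genes (14.9%) were at least 1.5-fold higher on this scale with both shRNAs, against 4.38% of all tested genes and 3.05% of protein-coding ones. None of the 47 was as much lower with both, against 5.99% and 6.14%.

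By limma, a linear model fitted here over all 13112 genes with Benjamini-Hochberg adjustment, 0 of the 47 passed an adjusted p of 0.05 (range 0.0829 to 0.956). That fit called 0.0839% of all genes higher and 0.267% lower, and 0.026% and 0.0779% of the tested protein-coding genes. These are 11 and 35 genes, or 65 and 111 after that scaling. At an unadjusted p under 0.05, 14 (29.8%) were higher and 1, BBS7, was lower, where 13.7% and 15.9% of all tested genes and 12.7% and 17.1% of protein-coding ones were. With limma fitted to the 11546 protein-coding genes alone, 12 of the 47 (25.5%) rose and 0 fell, against 7.11% and 11.3% of those genes. Both fits have 1 residual degree of freedom per gene, the difference between the shRNA libraries, and assume that the control varies as they do. limma draws the spread of each gene towards a trend over all fitted genes. The standard error (SE) and p are therefore not those of the gene's own spread. In TTC30B the shRNAs were 0.0046 apart in log2 and the SE over all genes was 0.14. The log2 changes are the same in both fits, while the genes behind the trend and the adjustment differ. None of the 47 had deposited bounds of both shRNAs above or below the control bounds, which 0.0839% and 0.221% of all tested genes, and 0.0779% and 0.243% of protein-coding ones, had.

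**Figure D2:**
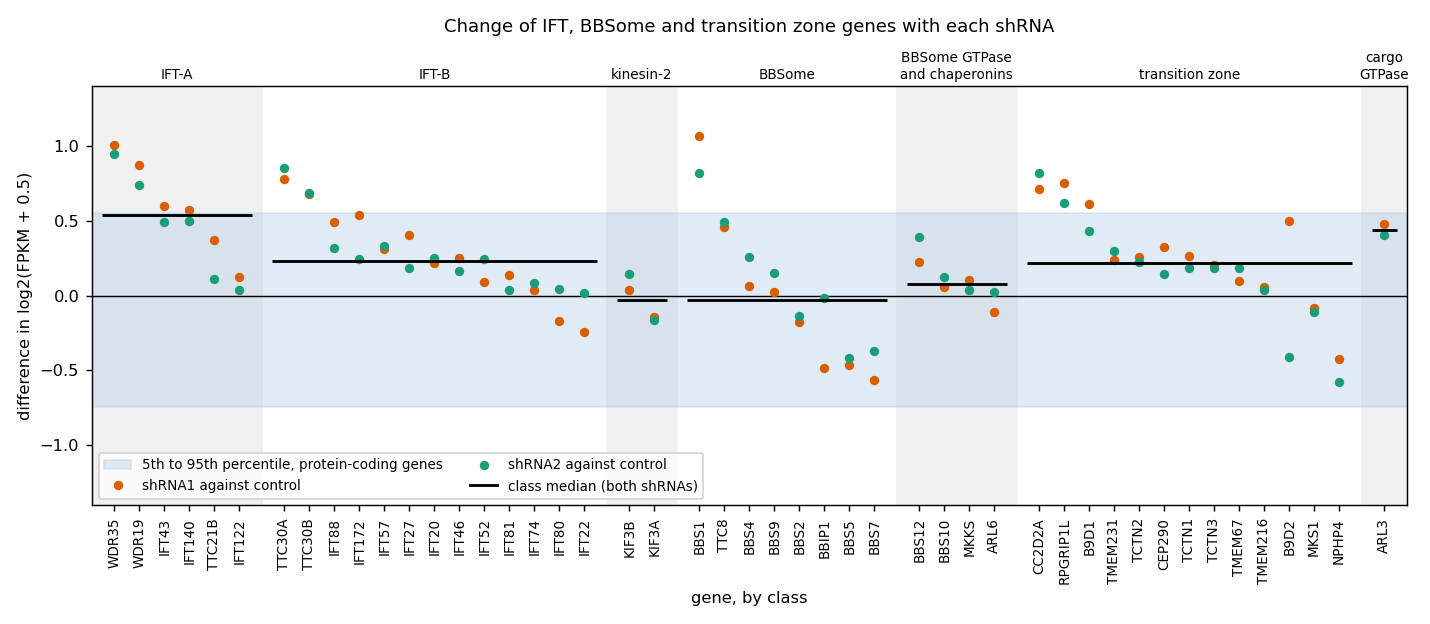
Difference in log2(FPKM + 0.5) between each shRNA library and the control for each gene, ordered within its class; black bars are class medians over both shRNAs and the blue band runs from -0.74 to 0.55, the 5th to 95th percentile of 11546 tested protein-coding genes. All 6 IFT-A genes lie above 0 with both shRNAs, while the BBSome genes, averaged over both shRNAs, spread from -0.47 to 0.94.

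IFT-A was the class with the highest median change among those with more than 1 gene, 0.54, and all of its 6 subunits were higher with both shRNAs. For this and the next classes, the shares over tested protein-coding genes were 41.2% higher and 44.9% lower with both. WDR35, a peripheral subunit, was at 3.20 FPKM in the control, 6.90 in the shRNA1 library and 6.61 in the shRNA2 library. Both knockdown values lay over 2-fold above the control, with a log2 change of 0.97 (SE 0.13). WDR19 belongs to the core of the complex and was at 2.59, 5.14 and 4.63 FPKM. Its log2 change was 0.80 (SE 0.15), with both knockdown values above the control. IFT140, another core subunit, was at 6.42, 9.80 and 9.28 FPKM. IFT43, a small subunit, was at 52.3, 79.5 and 73.7 FPKM. IFT43 shares exonic bases with TTLL5 on the same strand, which was at 14.5, 10.2 and 12.1 FPKM. These 4 genes passed limma among protein-coding genes alone (Benjamini-Hochberg adjusted p of 0.0094 to 0.0353), and over all genes none did (0.0829 to 0.0990). TTC21B was at 3.27, 4.37 and 3.56 FPKM and the core subunit IFT122 at 10.2, 11.1 and 10.4 FPKM, differences that passed in neither fit. IFT43 and IFT140 were singled out after their values were seen.

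Of the 13 IFT-B subunits, 11 were higher with both shRNAs and the other 2 lay on both sides of the control, with a median change of 0.23. The 2 highest changes were those of TTC30A and TTC30B, paralogs that both code for the tetratricopeptide subunit of the IFT-B core. TTC30A was at 3.03 FPKM in the control, 5.55 in the shRNA1 library and 5.87 in the shRNA2 library. TTC30B was at 3.119, 5.29 and 5.30 FPKM. Both passed limma among protein-coding genes alone, at Benjamini-Hochberg adjusted p of 0.0164 and 0.0277 (0.0844 and 0.0925 over all genes). Their coding sequences are equally long and identical at 96.0% of 1995 bases, so their reads may not be fully separated. TTC30B also overlaps AGPS on the other strand, a peroxisomal lipid synthesis gene that was listed at 0, 0 and 0.0140 FPKM. The locus deposited for TTC30B spans 82.6 times its GENCODE gene, and the part of this in its values was not tested.

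IFT88, a core subunit whose loss prevents cilium assembly, was at 8.0, 11.5 and 10.1 FPKM, with a difference of 0.41 in log2 (SE 0.13). IFT57, a peripheral subunit, was at 25.03, 31.2 and 31.5 FPKM. IFT172, the large peripheral subunit, was at 3.02, 4.61 and 3.66 FPKM, with log2 changes of 0.54 for shRNA1 and 0.24 for shRNA2. The adjusted p of these 3 in limma over protein-coding genes alone was 0.0665 to 0.185 (Benjamini-Hochberg). IFT22, a small GTPase-like subunit, was at 21.4, 17.97 and 21.6 FPKM. IFT80 was at 27.1, 24.1 and 28.0 FPKM. In both genes the control lay between the knockdown values. IFT80 shares 31.2% of its 50-base words with other genes, 23.8% with AC079594.2 on the same strand. That gene was at 0.410, 0.0386 and 0 FPKM. On the other strand IFT80 overlaps SMC4, a condensin subunit, at 68.2, 52.1 and 54.3 FPKM. The core group of 9 had a median of 0.21 and the peripheral group of 4 (IFT20, IFT57, IFT80 and IFT172) one of 0.28. Of the motor subunits of kinesin-2, KIF3A was at 12.8, 11.5 and 11.4 FPKM and KIF3B at 22.9, 23.5 and 25.3 FPKM, with limma adjusted p over all genes of 0.380 and 0.568 (Benjamini-Hochberg).

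BBSome subunits went both ways, 4 of 8 higher and 4 lower with both shRNAs, around a median of -0.03. Of tested protein-coding genes 41.2% were higher and 44.9% lower with both. The sign of this median is not stable, with -0.08 for shRNA1, 0.07 for shRNA2, and 0.088 over both when only genes averaging 5 FPKM or more are kept. BBS1, the subunit that binds the GTPase ARL6, was at 7.78 FPKM in the control, 16.8 in the shRNA1 library and 14.1 in the shRNA2 library. Its log2 change was 0.94 (SE 0.15), with a limma adjusted p of 0.0841 over all genes and 0.0092 among protein-coding genes (Benjamini-Hochberg). All of its lower bounds are 0, and besides the shared words noted above it overlaps ZDHHC24 on the other strand, which was at 12.6, 14.0 and 14.7 FPKM. The locus deposited for BBS1 spans 4.83 times its GENCODE gene, and the part of this in its values was not tested. TTC8 was at 34.9, 48.2 and 49.2 FPKM. It overlaps no other gene, and it passed among protein-coding genes with a limma adjusted p of 0.0186 (0.0865 over all genes, Benjamini-Hochberg).

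In the other direction, BBS7 was at 7.75, 5.08 and 5.88 FPKM and BBS5, which binds membrane lipids, at 2.33, 1.56 and 1.62 FPKM. Their log2 changes were -0.47 (SE 0.15) and -0.44 (SE 0.18), and neither passed limma in the protein-coding fit (Benjamini-Hochberg adjusted p of 0.0785 and 0.159). BBS5 shares 20.5% of its 50-base words with the readthrough gene AC093899.2, at 0.455, 0.536 and 0.595 FPKM. BBS2 was at 14.9, 13.2 and 13.5 FPKM and BBIP1 at 10.6, 7.46 and 10.5 FPKM, both with bounds from 0. BBIP1 overlaps PDCD4, which was at 171, 398 and 347 FPKM. The sum over the 8 subunits was 103 FPKM in the control, 118 in the shRNA1 library and 124 in the shRNA2 library.

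Of the proteins that recruit or build the BBSome, ARL6, which brings the BBSome to membranes, was at 4.83, 4.44 and 4.92 FPKM. Of the chaperonin-like assembly factors, MKKS was at 14.9, 16.0 and 15.3 FPKM, BBS10 at 9.66, 10.1 and 10.6 FPKM and BBS12 at 1.99, 2.40 and 2.75 FPKM. The median change of the 4 was 0.08, and their limma adjusted p over all genes was 0.317 to 0.861 (Benjamini-Hochberg).

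Of 13 transition zone genes, 10 were higher and 2 lower with both shRNAs, with a median change of 0.22. CC2D2A, a coiled-coil and C2 domain protein of the gate, was at 1.8 FPKM in the control, 3.26 in the shRNA1 library and 3.55 in the shRNA2 library. Its log2 change was 0.76 (SE 0.16). RPGRIP1L, a scaffold on which other gate proteins assemble, was at 4.05, 7.16 and 6.50 FPKM, higher by 0.69 in log2 (SE 0.14). Its control bounds ran from 0 to 8.23 FPKM. The locus deposited for RPGRIP1L spans 5.3 times its GENCODE gene. This ratio was larger for TTC30B (82.6), B9D2 (16.7) and IFT46 (5.86). The next below RPGRIP1L were TMEM231 (4.85), BBS1 (4.83) and MKS1 (4.45). The part of such wide loci in the values of these genes was not tested. B9D1, a B9 domain protein singled out after its values were seen, was at 27.1, 41.6 and 36.7 FPKM. CC2D2A, RPGRIP1L and B9D1 passed limma among protein-coding genes alone (Benjamini-Hochberg adjusted p of 0.0229 to 0.0299) and not over all genes (0.0930 to 0.0990).

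NPHP4 and MKS1 were the transition zone genes below the control with both shRNAs. NPHP4, of the nephronophthisis group of gate proteins, was at 2.57, 1.79 and 1.56 FPKM, with a difference of -0.50 in log2 (SE 0.19) and a limma adjusted p of 0.176 over all genes (Benjamini-Hochberg). MKS1 was at 18.3, 17.3 and 16.9 FPKM. B9D2, the partner of B9D1, was at 1.72, 2.63 and 1.17 FPKM, with the shRNAs on either side of the control, bounds from 0, and the widest gap between the shRNAs of the 47 genes (0.91 on the log2 scale). The other 7 genes of the zone, among them the 3 tectonics and CEP290, had log2 changes of 0.05 to 0.27.

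ARL3, the GTPase that releases lipid-modified proteins from their carriers inside the cilium, was at 11.2, 15.7 and 14.97 FPKM. Its log2 change was 0.44 (SE 0.10), with a limma adjusted p of 0.105 over all genes and 0.0434 among protein-coding genes (Benjamini-Hochberg). RP2, which switches ARL3 off, was at 13.3, 4.84 and 6.65 FPKM, and fell in limma among protein-coding genes (Benjamini-Hochberg adjusted p of 0.0105; 0.0899 over all genes). Of the carriers, chosen after their values were seen, UNC119B was at 21.8, 28.5 and 29.4 FPKM and PDE6D at 19.6, 21.8 and 19.7 FPKM.

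The difference between the classes was not tested. Each of the 7 genes with both values at least 1.5-fold higher (WDR35, BBS1, TTC30A, WDR19, CC2D2A, RPGRIP1L and TTC30B) was at 1.80 to 7.78 FPKM in the control. Across the 47 genes, which share the 3 libraries, the rank correlation of the control level with the log2 change was -0.14. The control value enters both measures. The 22 genes that overlap no exon of another gene had a median change of 0.20, with 20 higher and 1 lower with both shRNAs, and the 25 that do had one of 0.22, with 16 higher and 6 lower. Of tested protein-coding genes 41.2% were higher and 44.9% lower with both. The 22 include IFT46 and RPGRIP1L, whose deposited loci reach well beyond their genes, so shared reads are not excluded in them. The shRNA libraries differed from each other by a median of 0.10 on the log2 scale in these genes and by 0.11 in all tested protein-coding genes, and the shRNA1 value was above the shRNA2 value in 25 of the 47. Genes with any of the X-box words had a median change of 0.19 (23 genes) and those with none 0.23 (17 genes).

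Other genes of the cilium, from 10 lists on neighbouring functions, are given for comparison, and the difference from the 47 was not tested. Of 65 tested, 27 were higher and 25 lower with both shRNAs, where 41.2% and 44.9% of tested protein-coding genes were. Their median change was 0.04. In limma over all genes 1, FOXJ1, passed, higher with both shRNAs (1.91, 12.6 and 13.4 FPKM, Benjamini-Hochberg adjusted p of 0.0222). In the protein-coding fit 8 rose and 4 fell, where 7.11% and 11.3% of the fitted genes did. The 6 other IFT subunits had a median of 0.15 with none passing in either fit. Among BBSome regulators LZTFL1, which restrains the BBSome from entering the cilium, was at 13.1, 22.8 and 23.1 FPKM, with a limma adjusted p of 0.00692 among protein-coding genes and 0.0829 over all genes (Benjamini-Hochberg). Of the 5 regulators 2 rose and 1 fell in the protein-coding fit. The one that fell, RAB3IP, was at 34.2, 26.5 and 25.6 FPKM and was named after its values were seen. In the dynein-2 list the heavy chain DYNC2H1 was at 6.00, 7.07 and 8.31 FPKM, and 1 gene rose and 1 fell in the protein-coding fit.

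Of 11 other transition zone genes tested, 4 lay above and 4 below the control in both knockdown libraries, around a median of 0.02. For this and the next lists, the shares over tested protein-coding genes were 41.2% above and 44.9% below. Distal appendage and basal body genes had a median of -0.14, 7 of 13 lower with both and 4 higher, while in the protein-coding fit 2 rose (CEP164 and SDCCAG8, named after their values were seen) and 0 fell. Of 7 tested hedgehog and ciliary signalling genes 5 were lower with both (median -0.23), with none passing in either fit. Of the RFX factors, RFX2 was at 3.65, 3.83 and 2.51 FPKM and RFX3, under the filter, at 0.915, 0.691 and 0.927 FPKM.

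**Figure D3:**
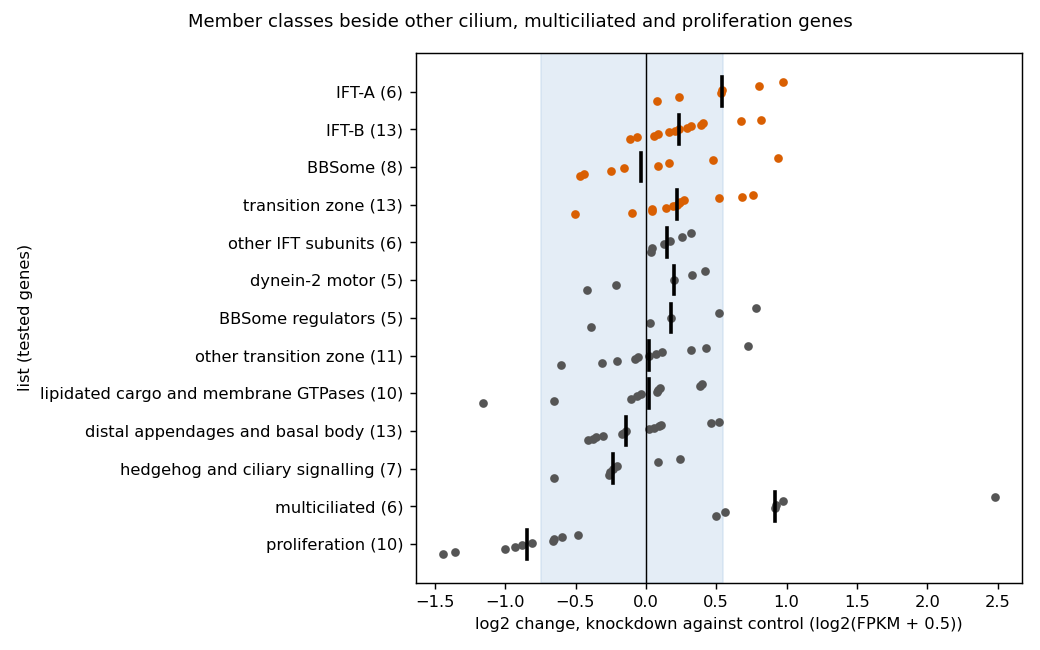
Log2 change (knockdown against control, log2(FPKM + 0.5)) of each tested gene in 4 member classes (orange) and in 9 other lists (grey), with the number of tested genes in parentheses; black bars are medians and the blue band is the 5th to 95th percentile of protein-coding genes, -0.74 to 0.55. The IFT-A median is 0.54, multiciliated markers have a median of 0.92 and proliferation genes one of -0.85.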

How the data were processed

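The authors deposited 1 table of FPKM per gene, each FPKM with 2 confidence bounds (level not stated) and a status, per the file headers. Per the submitters' processing notes the tools were STAR and RSEM and the build GRCh38. The program behind the confidence bounds, versions, annotation and any scaling between libraries: not given in the sources used here. No count model was applied, since FPKM are normalised. The test was limma 3.58.1 in R 4.3.3 (lmFit, eBayes with a mean-variance trend) on log2(FPKM + 0.5), run on the 13112 genes whose FPKM averaged 1 or more, Benjamini-Hochberg adjusted at 0.05, checked on simulated data. Scripts ran in Python 3.11.15 with numpy 2.4.6, pandas 2.3.3 and matplotlib 3.10.9. GENCODE release 29 (57435 of 58039 genes matched) gave types, exons and 50-base words, and may not be the authors' annotation. Depth came from 297 to 343 genes with 1 annotated transcript and bounds read as those of a single fragment. That reading is an assumption, since no source used here says what the bounds cover. The depth would also shift with any scaling of the deposited values.

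The members, lists and tests were chosen with earlier results of these data known. Values in every library are given for members at least 1.5-fold apart with both shRNAs, those with bounds clear of the control, and the 2 highest and 2 lowest by change in each class; other members named with values were chosen after these were seen. The promoter words were chosen after the expression values were seen.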

Additional observations from a re-analysis of the deposited data

How the results depend on the processing

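No paired analysis was possible because there is 1 control library and the groups share fewer than 2 replicate numbers. Of 11 genes called higher and 35 lower by limma over all genes, 0 and 0 were left with no filter, 65 and 111 after scaling each library to 1 common total (the same total), 430 and 595 with the robust option and 821 and 1299 among protein-coding genes alone; without the trend 6 were higher. The 47 genes had 6 calls with the robust option and 12 among protein-coding genes, all higher, and 0 in the other settings. With a mean FPKM of at least 5, 3 in place of 7 were at least 1.5-fold higher with both shRNAs, since low genes drop out, and 7 to 9 with 1 shRNA alone. Their median change of 0.207 became 0.168 at that filter and 0.130 with the same total, a scaling that shifts the all-gene median by -0.12 (shRNA1) and -0.03 (shRNA2); 27 were then higher and 9 lower with both, against 31.6% of protein-coding genes higher and 52.2% lower. With the same total the class medians became 0.465 for IFT-A, 0.157 for IFT-B, -0.105 for kinesin-2, 0.005 for the BBSome recruiting and assembly proteins, 0.145 for the transition zone and 0.365 for ARL3. The IFT-B median was 0.187 at the higher filter and 0.243 and 0.251 with shRNA2 and shRNA1 alone; that of the BBSome recruiting and assembly proteins was 0.082 and 0.076 with pseudocounts of 0.1 and 1, and 0.079 to 0.080 with 1 shRNA alone. The BBSome median turned to 0.088 at the higher filter and 0.068 with shRNA2 alone (-0.076 with shRNA1). Small changes that turned sign were those of IFT22 (0.015), IFT80 (0.046) and ARL6 (0.025) with shRNA2 alone (-0.244, -0.169 and -0.11 with shRNA1) and of MKKS with the same total (-0.004). The cause was not tested where none is given. Of 221 values of 23 named genes under the alternatives, these 4 reversed, 160 kept their direction and side of the threshold, 14 came to pass it, and 43 with 1 shRNA alone, where there is no test, kept their direction. At this depth 1 FPKM over 1 kb is about 31 to 32 fragments before any scaling.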
